A study of Mus musculus with 3 samples.

Results

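Spliceosomal small nuclear RNA (snRNA) genes were examined in chromatin RNA of mouse macrophages. A gene was a member when all of its annotated transcripts carried the class snRNA and its expected count, summed over 3 libraries, was 10 or more. The rule selected 36 of 1383 annotated snRNA genes, among 55536 genes in the tables. The members were therefore chosen by their counts, and their levels are given as a description with no test. Of the 36, 6 carry an Rnu symbol (Rnu1a1, Rnu1b1, Rnu1b2, Rnu1b6, Rnu2-10 and Rnu12) and 30 have a numbered Gm symbol. Just inside the threshold lay Gm22214, Gm24145 and Gm25184, with summed expected counts of 27, 22 and 10.4. Just outside it lay Gm23887, Gm22940 and Gm24622, with 8, 5 and 4.

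The RNA came from primary macrophages grown from the bone marrow of C57BL/6J mice, whose age and sex the labels do not give. Lipid A is the membrane anchor of bacterial lipopolysaccharide and a ligand of the receptor TLR4. All cells had a first exposure to Lipid A at 100 ng/ml lasting 12 h, then 12 h without it, and a second exposure at 100 ng/ml lasting 10 min, after which RNA of the chromatin fraction was depleted of ribosomal RNA. There were 3 libraries of this 1 condition, made from 1 µg (replicate 1), 250 ng (replicate 2) and 500 ng (replicate 3) of RNA, with a size range of 250 to 400 given without a unit. The labels name separate biosamples but a single donor entry, so the spread between libraries may be partly technical, and there is no untreated group.

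The libraries held 13538619, 19949221 and 18224480 expected counts on genes in replicates 1, 2 and 3. All 10 macrophage marker genes reached 1 on the TPM scale (transcripts scaled to a fixed library total after division by effective length) in every library, and 0 of 13 markers of T cells, B cells, neutrophils, erythroid cells and fibroblasts did. Of the 13, 1 did so in the read-based tables, the T cell marker Cd3d with 15.4, 11.6 and 14.3 TPM, beside at most 0.04 TPM in the gene tables. In the gene tables the summed TPM of the T cell and erythroid markers was at most 0.04 in any library, and that of the fibroblast markers was 0 in replicate 1 and at most 1.11 in the other libraries. The ribosomal RNA repeat genes accounted for 10.1% of counts in replicate 1, 21.4% in replicate 2 and 23.6% in replicate 3.

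Small nuclear RNAs are short, stable RNAs that form the core of the spliceosome together with Sm or Lsm proteins. In the major spliceosome U1 pairs with the start of an intron and U2 with its branch site, after which the U4, U5 and U6 snRNAs join. The rare introns of the minor class are recognised by U11 and U12, and U7 acts in histone mRNA processing. Most of these RNAs are made by RNA polymerase II from repeated gene copies, capped, trimmed after cleavage by the Integrator complex, exported and assembled with proteins in the cytoplasm before they return to the nucleus.

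Since 30 members have no type in their symbol, each sequence was compared with those of the Rnu-named genes. With an identity of at least 90%, 18 members were assigned to U1, 11 to U2 and 1 to U12, and 6 had no match at that level. None of the 11 Rnu-named genes is named for U4, so a U4 gene could not be given a type here. The 36 genes carried 22 distinct sequences: 20 genes shared 6 sequences and 16 genes had one of their own. The sequences on which the counts turn are printed first for the 3 named types and the highest unassigned gene, with motifs in capitals. These are the U1 start ACTTACCT that pairs with the intron's start, the U2 stretch GTAGTA that pairs with the branch site, the U12 stretch GTAAGGA that does the same in minor introns, and the Sm-type motif ATTTNTG. They are GENCODE M21 transcripts on mm10, written as DNA from the 5′ end.
Rnu1a1: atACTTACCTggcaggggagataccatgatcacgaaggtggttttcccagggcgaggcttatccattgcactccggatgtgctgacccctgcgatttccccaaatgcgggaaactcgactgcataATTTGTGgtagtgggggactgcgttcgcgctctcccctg
Rnu2-10: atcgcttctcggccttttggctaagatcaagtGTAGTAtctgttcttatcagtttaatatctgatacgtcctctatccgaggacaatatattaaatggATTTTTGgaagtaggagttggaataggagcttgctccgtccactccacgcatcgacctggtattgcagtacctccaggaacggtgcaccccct
Rnu12: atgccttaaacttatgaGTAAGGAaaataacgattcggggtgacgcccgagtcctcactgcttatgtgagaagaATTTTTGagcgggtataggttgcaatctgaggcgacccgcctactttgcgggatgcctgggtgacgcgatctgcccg
Gm24265: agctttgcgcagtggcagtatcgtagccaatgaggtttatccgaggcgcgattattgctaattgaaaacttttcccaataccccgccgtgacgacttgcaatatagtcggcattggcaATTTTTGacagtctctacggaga

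Rnu1a1 lies on the plus strand at chr11:87422867-87423030 and Rnu2-10 on the plus strand at chr11:101658238-101658428. Rnu12 lies on the plus strand at chr15:83149644-83149794 and Gm24265 on the plus strand at chr5:115489459-115489599. The Sm-type motif stood on the sense strand of 35 of 36 members, against 39.7% of the 214 snRNA genes over 140 bases that were not members and 20.5% of all 1383 snRNA genes. On the antisense strand it stood in 0 members and 12.7% of all snRNA genes. The letters ACTTACCT were found in 18 of 18 U1 members and in 4.34% of all snRNA genes. GTAGTA was found in 11 of 11 U2 members and in 3.69% of all snRNA genes, and GTAAGGA in Rnu12, in 1 unassigned member and in 1.37% of all. The motifs do not overlap in the sequences printed, and a match of letters is a description only.

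Variant copies of U1 and U2 that could be told from the named ones are shown next, with the bases that differ from Rnu1a1 or Rnu2-10 in capitals.
Gm22513: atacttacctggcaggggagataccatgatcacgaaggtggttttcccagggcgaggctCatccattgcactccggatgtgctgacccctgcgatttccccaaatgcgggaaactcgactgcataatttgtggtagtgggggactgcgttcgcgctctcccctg
Gm25890: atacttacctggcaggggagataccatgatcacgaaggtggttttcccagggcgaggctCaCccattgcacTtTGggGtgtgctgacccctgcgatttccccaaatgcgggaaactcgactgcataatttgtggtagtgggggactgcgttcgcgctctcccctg
Rnu1b6: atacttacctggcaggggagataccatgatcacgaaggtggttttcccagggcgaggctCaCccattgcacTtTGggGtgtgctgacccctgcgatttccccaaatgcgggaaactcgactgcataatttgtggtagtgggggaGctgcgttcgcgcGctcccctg
Rnu1b1: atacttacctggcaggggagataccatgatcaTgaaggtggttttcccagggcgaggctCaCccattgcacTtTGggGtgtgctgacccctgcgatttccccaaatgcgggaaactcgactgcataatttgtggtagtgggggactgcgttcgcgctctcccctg
Gm23472: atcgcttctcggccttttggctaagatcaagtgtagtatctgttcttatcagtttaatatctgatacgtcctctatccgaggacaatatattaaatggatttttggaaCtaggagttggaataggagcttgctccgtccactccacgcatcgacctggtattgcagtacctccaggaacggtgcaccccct
Gm25939: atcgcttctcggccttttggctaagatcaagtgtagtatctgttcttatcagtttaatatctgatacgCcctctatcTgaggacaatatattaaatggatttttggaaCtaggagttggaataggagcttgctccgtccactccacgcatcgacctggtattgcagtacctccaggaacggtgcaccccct
Gm25360: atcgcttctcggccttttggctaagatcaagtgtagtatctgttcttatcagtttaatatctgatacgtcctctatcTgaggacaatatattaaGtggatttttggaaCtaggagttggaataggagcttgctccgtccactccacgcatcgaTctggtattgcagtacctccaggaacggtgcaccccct

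Positions are counted from 1 at the 5′ end of the named gene, whose base is written first. Gm22513 (plus strand, chr12:54696782-54696945) differs from Rnu1a1 by 1 base, T60C. Gm25890 (minus strand, chr3:96486555-96486719) differs by 6 changes, which are T60C, T62C, an inserted base after position 71, C73T, C74G and A77G. Rnu1b6 (minus strand, chr3:96460024-96460189) has these 6 and an insertion after position 143 and T156G, and Rnu1b1 (minus strand, chr3:96359953-96360117) has the 6 and C33T. Among U2 genes, Gm23472 (plus strand, chr1:72236946-72237136) differs from Rnu2-10 by G109C. Gm25939 (plus strand, chr1:72255008-72255198) has T69C, C78T and G109C, and Gm25360 (plus strand, chr1:72226240-72226430) has C78T, A95G, G109C and C154T. By sequence the U1 members fell into 11 genes closest to Rnu1a1, called the U1a side here, and 7 closest to Rnu1b1, Rnu1b2 or Rnu1b6, the U1b side.

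The members lay on 9 chromosomes, most of them in clusters of copies of 1 type, with neighbours joined within 1 Mb. A cluster on chromosome 11 held 5 U2 genes in 53.6 kb (chr11:101604850-101658428), and one on chromosome 1 held 4 U2 genes in 29.0 kb (chr1:72226240-72255198). U1a-side genes formed a cluster of 7 in 41.8 kb on chromosome 12 (chr12:54696782-54738622) and a pair on chromosome 11, and all 7 U1b-side genes lay within 160 kb on chromosome 3 (chr3:96328425-96488893). Rnu1a1 and Gm22068 lie in introns of Tex14 on its own strand, and 3 of the chromosome 1 genes in introns of the long noncoding RNA D230017M19Rik. Tex14 held at most 25 expected counts and D230017M19Rik at most 45 in any library. Of the 4 low unassigned genes, Gm24041 and Gm24145 lie in same-strand introns of Tmem65 and Zc3h7a, Gm25184 overlaps an exon of Tpd52l2 on its strand, and Gm22214 lies opposite an intron of Rasa4. Zc3h7a held 8566, 9469 and 8805 expected counts in replicates 1, 2 and 3 while Gm24145 held 8, 7 and 7. Whether reads at these 4 genes came from the host transcripts was not tested.

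U1 and U2 made up nearly all member counts, and U12 and the unassigned genes very little. The U1 members held 21047, 3619 and 4727 expected counts in replicates 1, 2 and 3, and the U2 members held 28450.0, 16560.0 and 22416. Over the libraries U1 was 25.7% ± 14.4 and U2 73.2% ± 13.8 of member counts (SD, n = 3). U12 had 31, 37 and 37 counts, and the 6 unassigned genes together 166, 289 and 261. In total the members took 0.367%, 0.103% and 0.151% of the expected counts of replicates 1, 2 and 3. In TPM, which divides by effective length, they took 23.4%, 10.1% and 12.7% of a library. Effective length, the number of positions at which a fragment can start, was between 2.65 and 24.2 bases for members, and for a gene of 191 bases it was 24.2, 15.2 and 16.3 in replicates 1, 2 and 3. A small divisor of this kind sets the TPM of short genes, so TPM between libraries carries that difference too. In bulk RNA, fewer cells with a given RNA and less of it per cell cannot be told apart.

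**Figure D1:**
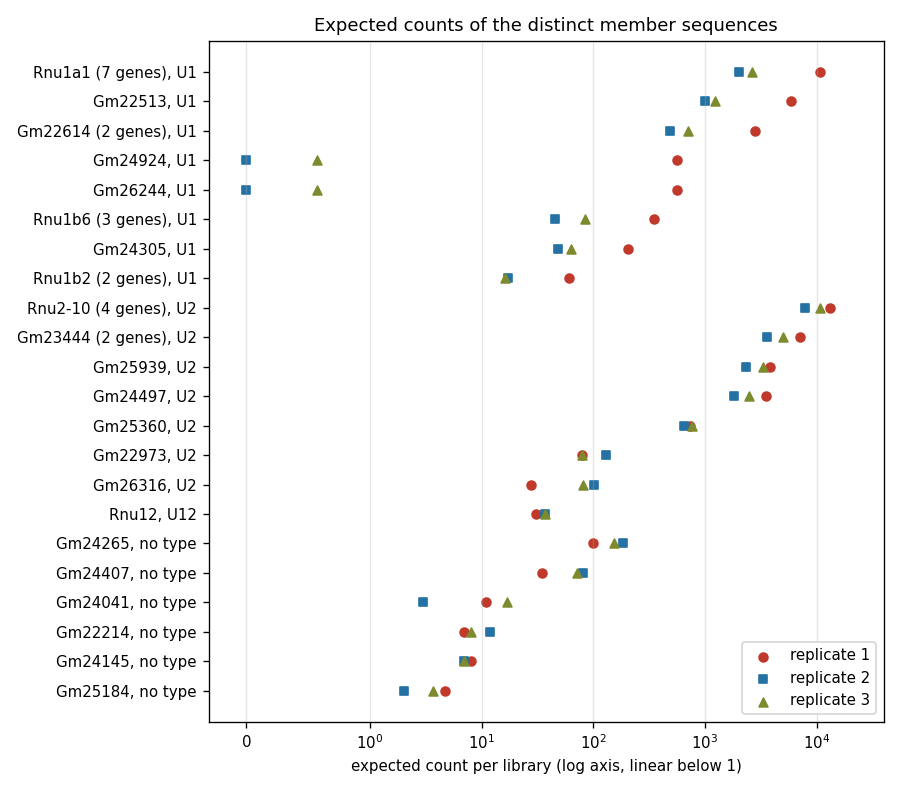
Expected counts per library (horizontal log axis, linear below 1) for the 22 distinct member sequences, grouped by type, with genes of 1 sequence summed and 1 point per replicate. Replicate 1 is highest for all 8 U1 sequences, while the U2 sequences lie closer together and Rnu12 has 31, 37 and 37 counts.

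Rnu1a1 and 6 other genes of its sequence (Gm22068, Gm22317, Gm22634, Gm23804, Gm25679 and Gm26444) each had 1518, 289.5 and 374 expected counts in replicates 1, 2 and 3. Summed, this U1 sequence had 10629, 2027 and 2621 counts. Gm22513, the T60C copy, had 5847, 999 and 1239 counts in its 1 gene, which was 3.85, 3.45 and 3.31 times Rnu1a1 alone. All of these were highest in replicate 1 and lowest in replicate 2. The pair Gm25890 and Gm22614, the highest sequence of the U1b side, had 2828, 483 and 701 counts together. Rnu1b6 and the 2 other genes of its sequence had 347, 45.3 and 84.4 counts together, and Rnu1b1 with Rnu1b2 had 61.2, 17.1 and 16.2. Gm24305, which has A26G, had 205, 48.2 and 63.7 counts.

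The mixture of U1 sequences was alike in the libraries although their total was not. The U1b side made up 15.4%, 15.1% and 17.0% of U1 counts in replicates 1, 2 and 3, or 15.8% ± 1.02 (SD, n = 3). Gm22513 made up 27.8%, 27.6% and 26.2% of U1 counts, or 27.2% ± 0.854 (SD, n = 3). The Rnu1a1 sequence made up 50.5%, 56.0% and 55.4%. In read-based counts its share was 46.7%, 47.5% and 40.6%, so the library of the lowest share depended on the table. In the gene table of replicate 1 the chromosome 18 genes Gm24924 and Gm26244 had 565 counts each, and they had 0 and 0.57 each in replicates 2 and 3. Each of them differs from Rnu1a1 by 1 base, and the tables give a posterior SD of 761 and 696 counts beside these 565, so this split is not resolved.

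**Figure D2:**
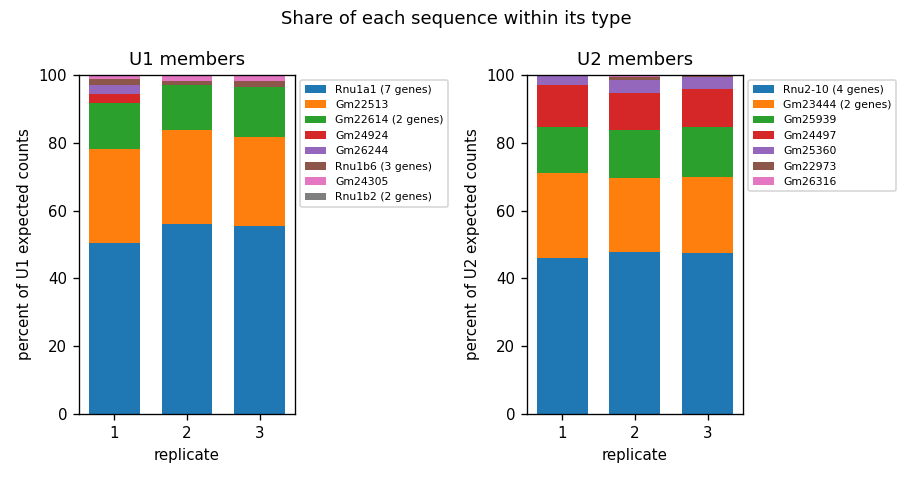
Percent of U1 (left) and U2 (right) expected counts held by each sequence in replicates 1, 2 and 3, as stacked bars that add to 100. The Rnu1a1 sequence holds 50.5% to 56.0% of U1 in the 3 libraries and Gm25939 13.5% to 14.7% of U2.

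Among U2 genes, Rnu2-10 and the 3 other genes of its sequence (Gm23849, Gm23971 and Gm24950) each had 3281, 1979 and 2667 expected counts in replicates 1, 2 and 3. The sequence of Gm23472 and Gm23444 had 7084, 3628 and 5010.3 counts, and Gm24497, which has C186A besides G109C, had 3542, 1814 and 2505. Gm25939 had 3854, 2315 and 3305 counts in 1 gene, or 13.5%, 14.0% and 14.7% of U2. These 4 sequences kept the order replicate 1, replicate 3, replicate 2. Gm25360 had 739, 655 and 768 counts, or 54.6, 32.8 and 42.1 CPM (counts scaled to the library total), in the same order of libraries as the first 4 sequences. Gm22973 had 79, 130 and 80 counts and Gm26316 had 27.6, 101 and 81.7, with the highest value of both in replicate 2.

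Of the genes without a type, Gm24265 and Gm24407 form a pair within 1 kb on chromosome 5. Their closest Rnu-named sequence was Rnu1a1 at 57.9% identity, and no U4 sequence was among those compared. The sequences of the pair differ by G88A and C99A. The second of the pair is shown with these bases in capitals.
Gm24407: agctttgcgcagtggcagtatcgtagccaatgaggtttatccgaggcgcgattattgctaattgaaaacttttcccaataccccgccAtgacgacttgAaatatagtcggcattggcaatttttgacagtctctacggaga

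Gm24407 lies on the plus strand at chr5:115490254-115490394. Gm24265 had 100, 184 and 153 expected counts in replicates 1, 2 and 3 and Gm24407 had 35, 81 and 72. The lower of the pair had 0.35, 0.440 and 0.471 times the counts of the higher. Both were lowest in replicate 1 in the gene tables, but in read-based CPM both were lowest in replicate 2, with 19.8, 17.4 and 21.3 for Gm24265 and 6.28, 6.10 and 6.75 for Gm24407. At 141 bases they are the shortest members, with effective lengths of 3.94, 2.65 and 2.80 bases. Gm24041 had 11, 3 and 17 counts, Gm22214 had 7, 12 and 8, Gm24145 had 8, 7 and 7, and Gm25184 had 4.70, 2 and 3.69. These 4 are near the rule's threshold, and no library was the highest for all of them.

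In CPM, U1 stood at 1555, 181 and 259 in replicates 1, 2 and 3. U2 stood at 2101, 830.1 and 1230.0 CPM, U12 at 2.29, 1.85 and 2.03, and the chromosome 5 pair at 9.97, 13.3 and 12.3. Replicate 1 was thus 7.05 times the mean of the other libraries for U1, 2.04 times for U2, 1.18 times for U12 and 0.778 times for the chromosome 5 pair. In read-based CPM the same ratio was 6.90 for U1, 2.10 for U2, 1.42 for U12 and 1.01 for the chromosome 5 pair. In the gene tables replicate 3 was 1.43 times replicate 2 for U1 and 1.48 times for U2. There the ratio of U1 to U2 counts was 0.740, 0.219 and 0.211 in replicates 1, 2 and 3, and the ratio of their TPM was 1.59, 0.464 and 0.449. In TPM of the gene tables U1 was therefore above U2 in replicate 1 and below it in replicates 2 and 3. In read-based TPM the ratio was 0.920, 0.275 and 0.269, so that U1 was below U2 in every library. Replicate 1 was also the library of highest RNA input, of lowest ribosomal RNA repeat share and of highest share of counts on tRNA, spike-in and phiX entries, at 1.39% against 0.288% and 0.283%. For a gene of 191 bases replicate 1 also had the longest effective length in the gene tables, at 24.2 bases against 15.2 and 16.3. In the read-based tables it had the shortest, at 47.9 bases against 48.9 and 50.5. These differences and the library cannot be told apart, and their part in the U1 and U2 levels, in CPM as in TPM, was not tested.

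Whether members varied more between libraries than other genes of their level was tested with edgeR's goodness-of-fit test. It sets each gene's deviance from a constant level against the dispersion trend of all genes, with Benjamini-Hochberg adjustment over 14789 genes passing a filter on low counts. The member rule used the sum of counts and not their spread. Of the 36 members 28 passed the filter, and 22 were called at an adjusted p below 0.05, where 1.13% of all genes tested were called. All 22 were highest in replicate 1; 0.886% of all genes tested were called with that order. By type the calls were 14 of 14 tested U1 genes, 8 of 11 U2 genes, 0 of 1 U12 gene and 0 of 2 unassigned genes. At an unadjusted p below 0.05 there were 14 U1 genes, 9 U2 genes and 0 of the other types. DESeq2 marked 14 members as dispersion outliers, all of them U1, and 0 U2 genes, where 61 of 14789 genes were marked. Without replicate 1 the called members fell to 1 of 28 tested, which was Gm25939, where 57 of 15101 genes were called. Without replicate 2 they numbered 14 of 29, where 68 of 14675 genes were called. Without replicate 3 they numbered 17 of 28, where 52 of 14901 genes were called. The 14 U1 genes were called in both of the last fits, and U2 genes numbered 0 and 3 in them. At an unadjusted p below 0.05 the members numbered 21 of 28 without replicate 1. By that measure they numbered 18 of 29 without replicate 2 and 23 of 28 without replicate 3. The share of all genes tested at an unadjusted p below 0.05 was not counted.

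Genes of 1 sequence share their reads, so their calls are not separate observations. With member genes of 1 sequence summed into 1 row, 8 of 16 tested sequences were called, where 1.04% of 14777 rows were. All 6 tested U1 sequences were called, from the adjusted p of 3.31e-22 for Gm22513 to 0.00283 for Rnu1b1 and Rnu1b2 together, by edgeR's goodness-of-fit test, and replicate 1 was 5.12 to 7.43 times the mean of the other libraries in them. Of 7 U2 sequences 2 were called by the same test, that of Gm23472 and Gm23444 (adjusted p = 0.0156) and Gm24497 (adjusted p = 0.00315). The gene tables split counts evenly over these 3 genes. The 2 calls, which are among the 8, are therefore not separate observations. The Rnu2-10 sequence was called gene by gene (adjusted p = 0.0397) but not as a sum (adjusted p = 0.341), and Gm25939 lay on either side of the threshold (0.0469 and, with the others summed, 0.0601). Rnu12 was not called (adjusted p = 1.00), nor was either gene of the chromosome 5 pair (1.00 both). That U1 differed from U2 in spread was not tested.

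**Figure D3:**
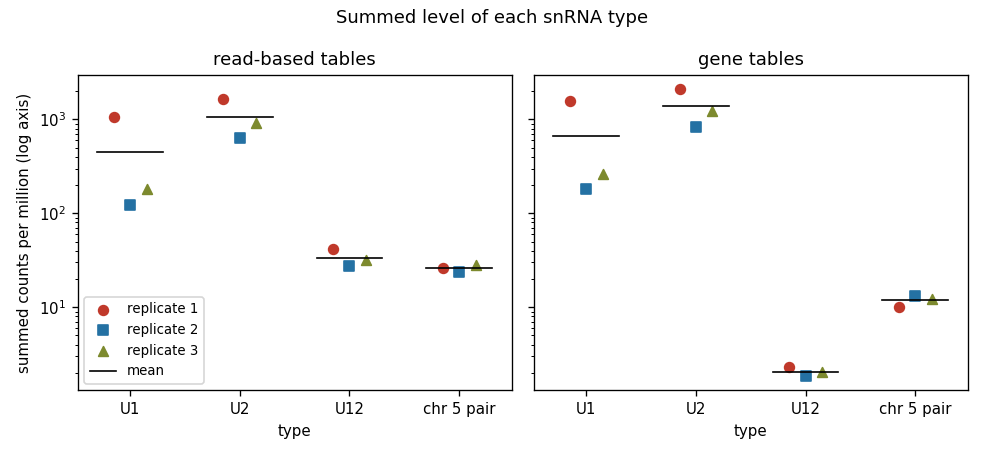
Summed CPM (log axis) of U1, U2, U12 and the chromosome 5 pair in the read-based tables (left) and the gene tables (right), with 1 point per replicate and a line at the mean. In the gene tables replicate 1 is 7.05 times the mean of the other libraries for U1 and 2.04 times for U2, and U12 is higher in the read-based tables than in the gene tables.

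Genes with equal counts to 2 decimals in all 3 libraries formed 7 groups holding 23 of the 36 members. The largest was the 7 genes of the Rnu1a1 sequence on chromosomes 11 and 12, followed by the 4 genes of the Rnu2-10 sequence, the trio Gm23472, Gm23444 and Gm24497, the trio Rnu1b6, Gm24830 and Gm26232, and pairs such as Gm25890 with Gm22614. In 5 of the groups all genes had 1 sequence. The exceptions were the U2 trio, where Gm24497 has C186A, and the chromosome 18 pair. The posterior SD that the tables give was 734.5 to 1232 counts for the 7 genes at 1518 counts each in replicate 1. For Gm25939 it was 0.63 beside 3854 counts and for Gm22513 it was 0.68 beside 5847. The counts of these last genes were thus assigned with little doubt, and a count for 1 of several equal copies is an even split of a shared total. Which copy was transcribed cannot be read from these tables.

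The read-based tables, in which the authors estimated counts straight from the reads, gave 6 groups with equal counts, holding 20 members, and each group had 1 sequence. They separated Gm24497, with 3967, 1936 and 1545 estimated counts in replicates 1, 2 and 3, from Gm23472 with 4145, 2641 and 4013. They also separated the chromosome 18 pair, with 1254, 267 and 571 counts for Gm24924 and 652, 76.3 and 257 for Gm26244. The tables thus differed in how they split near-identical U2 and U1 copies. In total U1 had 21472, 4326 and 5636 read-based counts and U2 had 33399, 21960.3 and 28912. Their ratio was 0.643, 0.197 and 0.195, beside 0.740, 0.219 and 0.211 in the gene tables. With read-based counts, 34 members were tested and 24 were called as varying, where 271 of 23769 genes tested were called. These 24 were 16 of 16 tested U1 genes and 8 of 11 U2 genes. They included all 22 members called from the expected counts, which were 14 of 14 tested U1 genes and 8 of 11 U2 genes.

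The median over members of the log2 ratio of read-based to gene-table counts (pseudocount 1) was 0.20, 0.40 and 0.42 in replicates 1, 2 and 3, or 0.34 ± 0.12 (SD, n = 3). Over the 18209 genes with a summed expected count of 10 or more it was 0.68, 0.89 and 0.82, or 0.80 ± 0.11. In TPM the direction was the opposite, with a median over members of -1.89 ± 0.63 (SD, n = 3). In the 13 U1 and U2 sequences with a count in every library, read-based counts summed over the libraries were 0.941 to 1.45 times those of the gene tables, and 0.617 to 1.63 times in single libraries. For the chromosome 18 pair, at 0 in the gene table of replicate 2, the ratio of sums was 3.70 (Gm24924) and 1.74 (Gm26244). For Rnu12 and the 6 sequences with no type the ratio of sums was 2.93 to 26.7, and 2.63 to 50.7 in single libraries. By sums the highest ratio of all 22 sequences was that of Rnu12, with 856, 956 and 987 read-based counts in replicates 1, 2 and 3 beside 31, 37 and 37 in the gene tables, a ratio of 26.7 ± 0.889 (SD, n = 3). Rnu12 did not overlap between the tables and was steady within each. Gm24041 had 148, 152 and 204 read-based counts beside 11, 3 and 17, a ratio of sums of 16.3 that reached 50.7 in replicate 2.

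**Figure D4:**
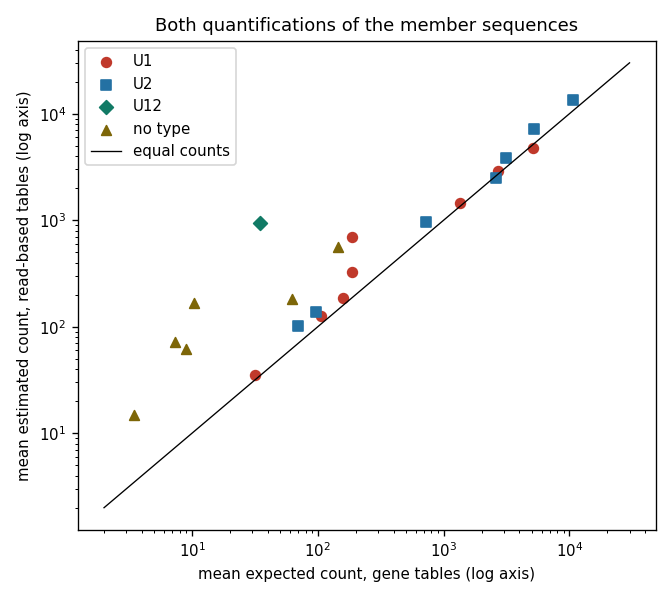
Mean estimated count in the read-based tables (vertical log axis) against mean expected count in the gene tables (horizontal log axis) for the 22 member sequences, with a line of equal counts. U1 and U2 sequences with a count in every library lie at 0.941 to 1.45 times the gene tables, and Rnu12 lies at 26.7 times.

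How far the major U1 and U2 exceeded the minor U12 depended on the table. In expected counts the 5 named U1 and U2 genes exceeded Rnu12 by a log2 ratio of 7.33, 5.96 and 6.38 in replicates 1, 2 and 3, or 6.56 ± 0.70 (SD, n = 3). On the TPM scale of the gene tables it was 5.02 ± 0.82. In the read-based tables it was 2.10 ± 0.54 in counts and 1.43 ± 0.58 in TPM. With every member that the sequence comparison assigned, it was 9.75 ± 0.80 in expected counts. The sum of U1 and U2 exceeded U12 in all 3 libraries on each of these scales. The 4 named U1 genes alone did not exceed it in read-based counts of replicates 2 and 3. They had 1629, 334 and 384 in replicates 1, 2 and 3, beside 856, 956 and 987 for Rnu12. Rnu1a1, Rnu1b6 and Rnu2-10 share their sequences with Gm-named genes, so the named genes hold only part of an even split. The 18 U1 members together had 21472, 4326 and 5636 read-based counts. On the TPM scale of the read-based tables the U1 members summed to 37694, 4213 and 5925 in replicates 1, 2 and 3 and the U2 members to 40952, 15317 and 21991, while Rnu12 stood at 1829, 1130.1 and 1253.

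The other named snRNAs were not members. Rnu5g, Rnu6, Rnu6-ps2, Rnu7 and Rnu11 were listed at 0 in all 3 gene tables. U5 carries the loop that holds the exons, U6 takes part in catalysis, and U11 finds the start of minor introns. Rnu5g, of 116 bases, had 145, 43.9 and 54.1 estimated counts in replicates 1, 2 and 3 of the read-based tables, and like U1 it was highest in replicate 1. Rnu6 (107 bases), Rnu6-ps2, Rnu7 (62 bases) and Rnu11 (134 bases) were listed at 0 there too. Rnu11 overlaps an exon of Gm28872 on the other strand, which had 57, 40 and 33 read-based counts in replicates 1, 2 and 3. Rnu7 overlaps an exon of Grcc10 on its own strand, which had 201, 369 and 276. Whether reads of Rnu11 or Rnu7 were assigned to these genes was not tested. The Rnu6 sequence belongs to 43 annotated genes. Gm23092 and Gm24242, of 1 sequence that is 99.1% identical to Rnu6, had 114, 163 and 135 read-based counts each and 0 in the gene tables.

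No snRNA gene of 140 bases or shorter reached the sum of 10 in the gene tables. Of 1133 snRNA genes of 140 bases or shorter 0 were members, and of 250 longer ones 36 were, which is a description since the rule used counts. Any count at all was listed for 5 of the shorter genes and 64 of the longer ones. The effective length in the gene tables was 0 in all 3 libraries for 1083 snRNA genes, the longest of them 122 bases. A sum of 10 or more in the read-based tables was reached by 271 snRNA genes, made up of the 36 members and 235 other genes, of which 194 were 140 bases or shorter. The shorter genes held 17143 read-based counts over the 3 libraries and 4.28 expected counts, and the longer ones 124354 and 97696. Rnu5g had an effective length of 17.2, 17.9 and 19.0 bases in the read-based tables and of 0 in the gene tables. A count of 0 in the gene tables therefore does not show that a short snRNA was absent from the chromatin fraction.

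**Figure D5:**
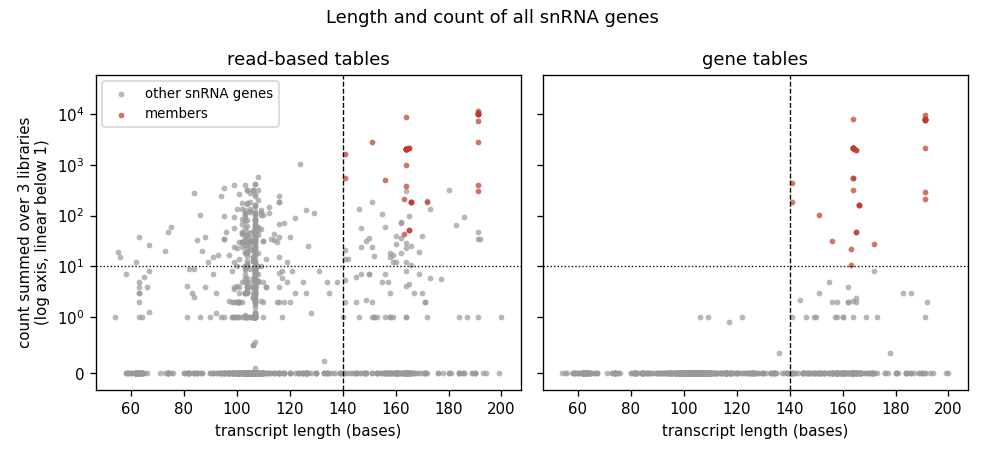
Count summed over 3 libraries (vertical log axis, linear below 1) against transcript length in bases for all 1383 snRNA genes, in the read-based tables (left) and the gene tables (right), with members in red. The dashed line marks 140 bases and the dotted line a sum of 10; in the gene tables no gene of 140 bases or shorter reaches 10, and 194 do in the read-based tables.

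Genes that make, process and bind snRNAs were read from 6 lists with 113 genes found of 115 listed, Ints15 and Cenatac not being matched under these symbols. Of the 113 genes 106 were detected, which means that no library had less than 1 TPM, where 45.6% of all 22028 protein-coding genes did. The median of the mean TPM over the 113 genes was 9.75, beside 0.68 over all protein-coding genes. Over the protein-coding genes that were detected in the same sense it was 12.1, which is above the median of the 113. Of the 108 that passed the filter on low counts, 0 were called as varying between libraries, where 1.13% of all genes tested were called. With so low a share, 0 calls do not set these genes apart from others. The lowest adjusted p of edgeR's goodness-of-fit test was 0.656 for Ell2. At an unadjusted p below 0.05 there was 1, Ell2, and DESeq2 marked 0 as dispersion outliers.

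Of the 15 genes listed for snRNA transcription, which take in the polymerase III factor TFIIIB as a whole, all 15 were detected. The highest were Brf1, part of the polymerase III factor TFIIIB, at 82.3 ± 11.2 TPM, Snapc3, a subunit of the complex that binds snRNA promoters, at 56.0 ± 4.01, and the elongation factor gene Ell2 at 56.0 ± 22.7 (SD, n = 3). Ell2 had 80.3, 52.4 and 35.3 TPM in replicates 1, 2 and 3. Snapc2, another subunit, was lowest at 1.48 ± 0.155 TPM. All 14 Integrator genes were detected, from Ints6 at 44.8 ± 2.50, Ints1 at 28.5 ± 7.20 and Ints7 at 26.4 ± 1.01 TPM down to Ints5 at 2.77 ± 0.664.

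For export, assembly and modification 22 of 25 genes were detected. Xpo1, the export receptor, had 153 ± 27.2 TPM, Tgs1, which hypermethylates the cap, 60.2 ± 11.2, and Usb1, which trims the end of U6, 49.5 ± 6.26. Gemin6 and Gemin8, of the SMN complex that loads Sm proteins, were lowest, both at 0.620 TPM. Of the genes for Sm and Lsm proteins, which form the rings around snRNAs, 14 of 17 were detected, with a median of 4.63 TPM. Snrpd1 led at 11.4 ± 3.18 TPM, before Lsm7 at 8.61 ± 0.765 and Lsm6 at 8.35 ± 0.801, and Snrpn was listed at 0.

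Of 31 genes for proteins of the U1, U2, U4, U5 and U6 particles 30 were detected, with a median of 16.9 TPM. Sf3b1, the U2 protein that holds the branch site, was highest at 240 ± 6.93 TPM, followed by the U1 protein gene Snrnp70 at 188 ± 13.3 and Sf3b2 at 61.5 ± 6.55. Sf3b5 was lowest at 0.417 ± 0.102. All 11 minor spliceosome genes found were detected, with Zcrb1 at 71.5 ± 4.32, Zrsr2 at 58.2 ± 1.65 and Snrnp48 at 34.7 ± 2.56 TPM the highest and Snrnp25 at 1.26 ± 0.211 the lowest. Their median was 13.4 TPM. These are levels of chromatin RNA, which includes unspliced transcripts, and not of the proteins.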

How the data were processed

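Chromatin RNA of 3 libraries of 1 condition was analysed. The authors deposited gene tables of expected counts and TPM on mm10 with GENCODE M21, per the file headers and labels, and read-based transcript tables of estimated counts and TPM. Their columns are those of RSEM and kallisto. The sources used here give neither versions nor the use of strand. Read-based values were summed per gene. The deposited effective lengths and posterior SD were read as given.

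The members and lists were chosen with earlier results of these data known. Members were compared by global alignment (Biopython 1.88). Expected counts were rounded to whole numbers and fitted in edgeR 4.0.16 (R 4.3.3) with filterByExpr, TMM, an intercept only and a trended dispersion. The p of each deviance came from the chi-square distribution, with Benjamini-Hochberg adjustment. The step was tested on simulated counts. A p-value here speaks only of the spread among the 3 libraries, and without molecular identifiers reads do not equal molecules. Entries for tRNA, spike-in and phiX stayed out of totals. Named genes were all Rnu-named members, the 12 highest others, called members, the 5 largest groups of equal counts, those beside the threshold, and per list the 3 highest, the lowest and any called. Alternatives were scaling and dispersion outliers from DESeq2 1.42.0, no filter, the read-based tables, leaving out the ribosomal repeat or each replicate, other thresholds and pseudocounts, and identical sequences summed, the last and the U1 to U2 ratio being chosen after seeing the data. Figures were drawn with matplotlib 3.10.9.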

Additional observations from a re-analysis of the deposited data

How the results depend on the processing

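The number of members was 66 at a summed expected count of 1 or more, 33 at 30 or more, and 271 with read-based sums of 10 or more, in place of 36. The count of members called as varying, 22, was 22 with DESeq2 size factors, 19 without a filter, 24 in the read-based tables, 14 as DESeq2 dispersion outliers and 8 with identical sequences summed, which makes fewer rows. Over all genes tested, the calls were 167 of 14789 in the main fit, 214 of 24516 without a filter and 271 of 23769 read-based. Leaving out 1 replicate gave 1 to 17 called members, where 52 to 68 of all genes tested were called. The members' share of TPM was 4.51% read-based, against 15.4% in the gene tables, and 11.4% to 18.1% with 1 replicate left out. The log2 ratio of major to minor snRNAs, 6.56 in expected counts, was 5.02 in TPM, 2.10 in read-based counts, 1.43 in read-based TPM, 9.75 with members assigned by sequence, and 6.17 to 6.85 with 1 replicate left out. The median log2 ratio of read-based to gene-table values, 0.34 in counts, turned to -1.89 in TPM, and was 0.30 to 0.41 with 1 replicate left out. U1 over U2, 0.390 in counts, was 0.835 in TPM, and 0.215 to 0.479 with 1 replicate left out. The members' share of counts was 0.127% to 0.259% with 1 replicate left out, around 0.207%. The number of members with equal counts was 23 and, in the read-based tables, 20. The causes were not tested. No paired analysis was possible because there is 1 group. Low counts limit the precision for 4 unassigned genes with fewer than 20 expected counts in every library.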
